A study of Mus musculus with 12 samples.

Results

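Antiviral effector genes are the interferon-stimulated genes whose products act on a virus or on the infected cell. The separation from genes that sense infection or regulate signalling is not sharp, since some members, such as Eif2ak2 and Trafd1, also do so. The set described here holds 37 such genes, matched by symbol to the Ensembl identifiers of the 55401 genes in the table of counts: the Mx GTPases, viperin (Rsad2) and its neighbour Cmpk2, membrane proteins of the tetherin and IFITM kind, the PARP family with its partner Dtx3l, proteins that handle RNA and nucleotides, and a group of transcriptional and ubiquitin regulators. The OAS, IFIT, GBP, IRG, Schlafen and p200 families were not included. No measured value entered the choice of a member. The members were, however, listed with earlier results of these data known.

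The genes were measured in Sp37A3 cells, an immature dendritic cell (DC) line derived from mouse spleen and grown with GM-CSF and M-CSF. CtrV cells were transduced with an empty lentiviral vector, and EKO cells with a CRISPR/Cas9 vector against Siglece, which encodes the inhibitory sialic acid receptor Siglec-E; the EKO line is a pool of several edited clones, and each line is a single population. Both lines carry a vector, and all cells were stimulated for 24 h with lipopolysaccharide (LPS), a ligand of Tlr4, at 0.1 µg/ml in the OVA-pulsed cells and at a dose not given for the unpulsed ones. OVA-pulsed cells had first received the model antigen ovalbumin at 0.1 mg/ml for 2 h. With 2 lines, with and without OVA, and 3 replicates in each of the 4 groups there were 12 libraries, and nothing in the labels says whether replicates were separate cultures, so the p-values measure the spread between these libraries, which may be technical.

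Type I interferon secreted by a cell binds the receptor Ifnar1/Ifnar2, and the kinases Jak1 and Tyk2 then phosphorylate Stat2, which acts with Irf9 at the interferon-stimulated response element (ISRE) in the promoters of genes like those described here. Type II interferon acts mainly at the gamma-activated site (GAS). In DCs, LPS induces interferon beta through the adaptor Ticam1 and the transcription factor Irf3, and the secreted interferon acts back on the cells.

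Promoter sequences show which members carry the ISRE letters near a RefSeq start. The windows came from GRCm38.p6, the build the counts were made on (mm10). They reached from 250 bases before to 50 bases after a start and were available for 28 of the 37 members. Genes with several RefSeq starts had several windows (5 for Shisa5, 3 for Tdrd7 and 3 for Adar). A match in any window of a gene counted, for members and for all genes alike. The ISRE was searched as GAAANNGAAA and the GAS as TTCNNNGAA, each on both strands. The ISRE letters were found in 11 of 28 members (39.3%), against 1079 of 27025 genes with a window (3.99%) and 10.0% of the 568 genes with a window that were at least 1 log2 unit higher in EKO-labelled than in CtrV cells after OVA. The GAS letters were found in 8 of 28 members (28.6%), against 9.55% of all genes with a window. In Bst2, Parp11, Ifitm3 and Shisa5 a GAS match overlapped an ISRE match. The 4 stretches below are shown because their ISRE match and its flanks lie wholly before the gene, and because they span members with large and small differences between the lines. They are written 5′ to 3′ on the gene's strand, with the ISRE letters of either strand in capitals:
Ddx60 (chr8:61928009-61928086, + strand): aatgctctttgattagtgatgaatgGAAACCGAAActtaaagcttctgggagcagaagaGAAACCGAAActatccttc
Rsad2 (chr12:26456538-26456597, - strand): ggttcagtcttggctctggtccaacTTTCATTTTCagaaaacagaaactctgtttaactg
Bst2 (chr8:71537562-71537627, - strand): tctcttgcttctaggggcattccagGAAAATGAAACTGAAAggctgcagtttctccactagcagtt
Parp11 (chr6:127446771-127446830, + strand): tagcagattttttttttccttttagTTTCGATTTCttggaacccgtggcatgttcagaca

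Ddx60 held the same 10 letters at 2 places, from -53 to -44 and from -19 to -10 counted from the RefSeq start. In Bst2 the capitals are 2 overlapping matches, and in Rsad2 and Parp11 the match lies on the opposite strand. Ifitm2, Phf11b and Tdrd7 also matched before a RefSeq start, whereas Ifitm3, Trim21, Eif2ak2 and Shisa5 matched only after one. The ISRE matches of Tdrd7 and Shisa5 and the GAS match of Adar lie at starts inside the gene, not at its first base. Members with and without the letters had overlapping differences between the lines. Among OVA-pulsed cells the median log2 fold change between the lines was 0.86 for the 11 members with the ISRE letters (0.17 to 2.54) and 1.07 for 16 tested members without them (0.53 to 2.68). Both Ddx60, with a large difference, and Ifitm3, with the smallest, carried the letters more than once.

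Library totals lay between 27116201 and 39698572 counts, at which 3 counts correspond to 0.0785 to 0.110 CPM, the count scaled by TMM to a common library size. Of the 37 members, 36 passed the expression filter (more than 0 log2 CPM in 2 or more libraries), and Ifi44 did not. Of the 36, Batf2 passed this filter only through EKO-labelled libraries. All 9 conventional DC markers passed it, at a summed level of 20180 to 23050 CPM in every library, most of it Cd74. The plasmacytoid DC list was nearly absent, with 1 of 8 genes (Pacsin1) above the filter and Ly6d and Tcf4 at 0 throughout, and no T cell, B cell or neutrophil marker passed it. Of 5 fibroblast or epithelial markers 1 passed, Epcam, at 20.8 to 33.0 CPM over the libraries. Siglece, the targeted gene, was not lower in the cells labelled EKO: its CPM was 150 to 163 in the 6 CtrV libraries and 166 to 235 in the 6 EKO libraries, with a log2 fold change of 0.31 (SE 0.08) after OVA and 0.41 (SE 0.08) without (edgeR, adjusted p = 0.0106 and 0.00261). Editing can stop the protein without lowering the mRNA, and the mRNA therefore does not check the labels. The paper reports that the clones it pooled showed minimal or no Siglec-E, a check of the cells that the counts cannot repeat. The cells are called EKO-labelled below, and every direction given rests on those labels.

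Some libraries stood apart before any comparison. Both EKO-labelled replicate 1 libraries differed from the other replicates of their group by 26.2 to 45.3 chi-square units per degree of freedom over genes, against 7.52 to 11.9 between replicates 2 and 3. CtrV_unpulsed replicate 3 also stood apart, at 25.4 and 23.4 from replicates 1 and 2, which differed by 4.86, and CtrV OVA replicate 1 differed by 14.5 and 21.3 from replicates 2 and 3, against 7.98 between those. Over the 36 members, EKO-labelled replicate 1 was the lowest library of its group for 33 members without OVA and for 29 with OVA. CtrV OVA replicate 1 was the highest of its group for all 36. The OVA-pulsed replicate 1 libraries were also the deepest of their groups, at 36876844 counts in CtrV and 39698572 in EKO-labelled cells, and the part of depth was not tested. For most members replicate 1 thus lay nearer to the other line in these 3 groups, and values without these libraries are given beside the results that depend on them. The median coefficient of variation of the members was 13% in unpulsed CtrV, 23.4% in OVA-pulsed CtrV, 27.6% in unpulsed EKO-labelled and 11.5% in OVA-pulsed EKO-labelled cells.

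**Figure D1:**
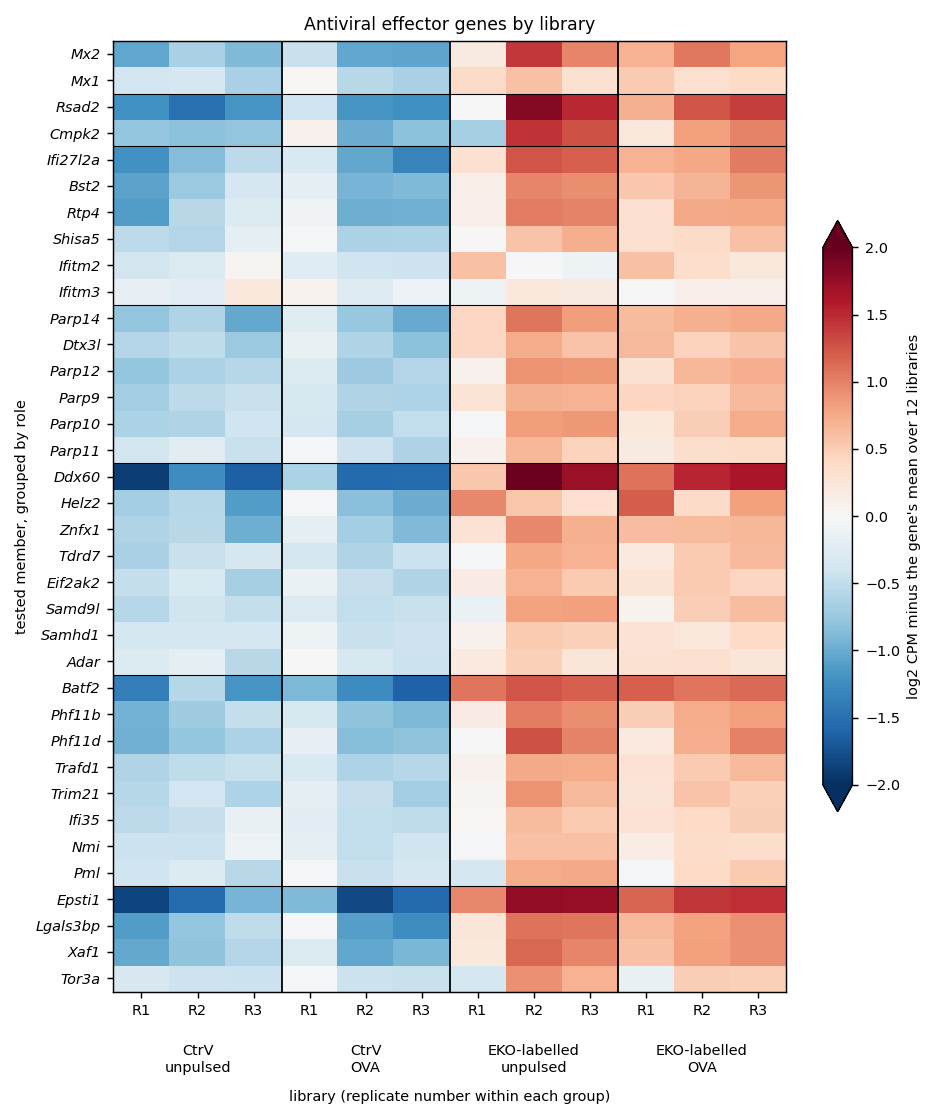
Colour gives log2 CPM minus the gene's mean over the 12 libraries for the 36 tested members (rows, grouped by role) in each library (columns, R1 to R3 within each group). EKO-labelled libraries are mostly red and CtrV libraries mostly blue, and replicate 1 of both EKO-labelled groups and of OVA-pulsed CtrV is paler than its neighbours.

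The antiviral genes were higher in EKO-labelled than in CtrV cells, with and without OVA. In OVA-pulsed cells, the comparison the study describes, 32 of 36 tested members (88.9%) were higher at an adjusted p under 0.05 and none was lower, where 47% of all tested genes differed in either direction, 25.1% being higher and 21.9% lower. The members' median log2 fold change was 1.04 (range 0.17 to 2.68), against 0.00 over all genes. Of the 32, 18 were at least 1 log2 unit higher, a size that 5.63% of all tested genes reached. In unpulsed cells 34 of 36 (94.4%) were higher and none lower, where 46.4% of all genes differed and 24.5% were higher, with a median of 1.16 (0.16 to 3.06) and 23 members at least 1 log2 unit higher (5.56% of all genes). All EKO-labelled libraries lay above all CtrV libraries for 33 of 36 members after OVA (27% of all genes, with 25.9% wholly below) and for 32 without OVA (24.1%, with 22.9% wholly below). Together the members took 0.378 to 0.501% of a CtrV library's counts and 0.604 to 0.828% of an EKO-labelled one's.

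Some markers of cell states moved with the line. Of the 9 conventional DC markers, Flt3, H2-Ab1, Irf8, Batf3 and Ccr7 were higher in EKO-labelled cells after OVA (log2 fold changes of 1.74, 0.52, 1.35, 1.67 and 1.96) and Itgax was lower (-0.27). Without OVA H2-Ab1, Irf8 and Batf3 were higher and Itgax lower. Ccr7 overlapped after OVA, at 50.4 to 182 CPM in CtrV and 132 to 534 CPM in EKO-labelled libraries. Zbtb46, Cd74 and Sirpa passed in neither comparison, and the summed level of the list overlapped between the lines. All 6 macrophage markers passed the filter, Csf1r, Fcgr1 and C1qa among them being higher in both comparisons, and their summed level was 1595 to 1810 CPM in CtrV and 2237 to 2504 CPM in EKO-labelled libraries, without overlap. The plasmacytoid list, nearly all of it Pacsin1, summed to 8.28 to 20.2 CPM in CtrV and 17.7 to 22.1 CPM in EKO-labelled libraries. The part of such cell states in the members' difference was not tested, and in bulk RNA fewer cells with a transcript and less transcript per cell cannot be told apart. The difference also cannot be told apart from any other difference between a pool of edited clones and an empty-vector population.

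**Figure D2:**
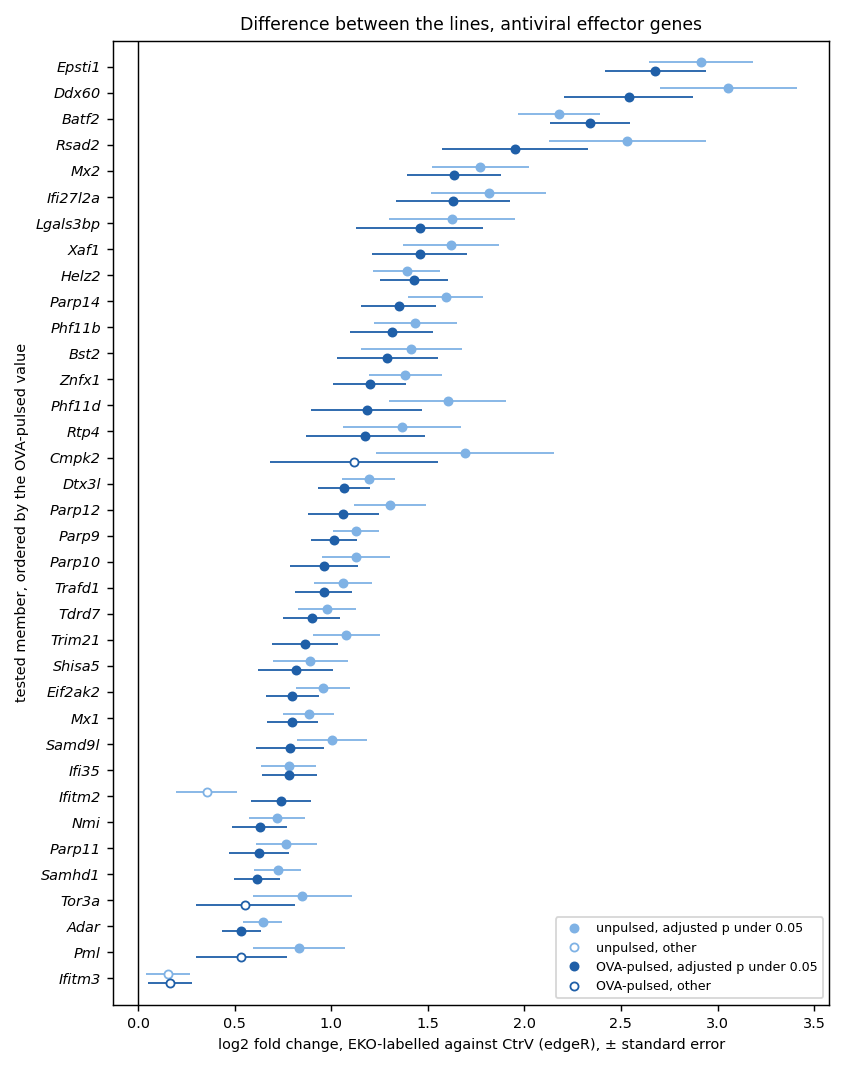
Log2 fold change of EKO-labelled against CtrV cells with its standard error (horizontal axis) for each tested member, in unpulsed (light) and OVA-pulsed (dark) cells; filled points passed an adjusted p of 0.05. Every point lies above 0, from Ifitm3 at 0.16 and 0.17 to Ddx60 at 3.06 unpulsed and Epsti1 at 2.68 after OVA.

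The Mx proteins are dynamin-like GTPases that block viral nucleocapsids, Mx1 in the mouse acting mainly in the nucleus and Mx2 in the cytoplasm. Both were higher. Mx1 measured 134, 138 and 111 CPM in unpulsed and 178, 118 and 110 CPM in OVA-pulsed CtrV cells, then 225, 261 and 215 CPM in unpulsed and 250, 217 and 230 CPM in OVA-pulsed EKO-labelled cells. The lines did not overlap, and the OVA-pulsed fold was 1.74 (log2 0.80, SE 0.13, edgeR adjusted p = 0.000589). Mx2 was scarcer and differed more, with 6.38, 8.31 and 7.08 CPM in unpulsed and 9.59, 6.37 and 6.30 CPM in OVA-pulsed CtrV cells against 14.9, 34.9 and 25.8 CPM in unpulsed and 21.2, 27.1 and 22.6 CPM in OVA-pulsed EKO-labelled cells. The Mx2 fold was 3.11 after OVA (log2 1.64, SE 0.25, edgeR adjusted p = 0.000309) and 3.42 without. In most inbred laboratory strains both Mx genes carry mutations that disable the protein, and GENCODE lists Mx2 (chromosome 16, + strand) as a polymorphic pseudogene, so these are values of mRNA only.

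Rsad2 encodes viperin, a radical SAM enzyme that makes a chain-terminating nucleotide, and Cmpk2 is a nucleotide kinase that supplies its substrate. The genes lie head to head on chromosome 12 with 12751 bases between them and no coding gene in the gap. Rsad2 measured 3.74, 3.08 and 3.85 CPM in unpulsed and 6.57, 3.84 and 3.71 CPM in OVA-pulsed CtrV cells, against 8.69, 30.9 and 24.8 CPM in unpulsed and 14.1, 20.8 and 22.7 CPM in OVA-pulsed EKO-labelled cells. Replicate 1 of the EKO-labelled cells was the lowest in both groups but lay above every CtrV library. The fold was 3.87 after OVA (log2 1.95, SE 0.38, edgeR adjusted p = 0.00172) and 5.79 without (log2 2.53, SE 0.41, adjusted p = 0.000512). Cmpk2 lay between 2.18 and 4.62 CPM in CtrV and between 2.75 and 11.8 CPM in EKO-labelled cells, again lowest in EKO-labelled replicate 1, whose unpulsed value of 2.75 CPM was below that of CtrV OVA replicate 1. The Cmpk2 fold change of log2 1.69 (SE 0.46) in unpulsed cells passed the test (adjusted p = 0.0118), while 1.12 (SE 0.44) after OVA did not (adjusted p = 0.0565). Without CtrV OVA replicate 1 the latter was 1.9 (adjusted p = 0.00205), and without EKO_unpulsed replicate 2 the unpulsed value was 1.30 (adjusted p = 0.0675). The unpulsed Cmpk2 call was also lost without CtrV_unpulsed replicate 2 or 3 or EKO_unpulsed replicate 3 (edgeR adjusted p = 0.0548, 0.0555 and 0.0532).

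Among the membrane proteins, Bst2 (tetherin) holds budding virions at the cell surface, the IFITM proteins block fusion of viral with cell membranes, and Ifi27l2a, Shisa5 and Rtp4 are interferon-induced membrane proteins. After OVA 5 of 6 were higher, and 4 of 6 in unpulsed cells. Ifitm3 was by far the most abundant member, at 1178, 1138 and 1529 CPM in unpulsed and 1383, 1104 and 1225 CPM in OVA-pulsed CtrV cells, 1239, 1533 and 1494 CPM in unpulsed and 1318, 1427 and 1423 CPM in OVA-pulsed EKO-labelled cells. Its groups overlapped, and neither log2 fold change, 0.17 (SE 0.11) with and 0.16 (SE 0.11) without OVA, passed the test (adjusted p = 0.260 and 0.293). Without CtrV OVA replicate 1 the OVA value was 0.32 (adjusted p = 0.0254).

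Ifitm2, its paralog on chromosome 7, behaved otherwise among the libraries. It measured 118, 126 and 160 CPM in unpulsed and 130, 116 and 115 CPM in OVA-pulsed CtrV cells, 231, 154 and 143 CPM in unpulsed and 231, 195 and 179 CPM in OVA-pulsed EKO-labelled cells. Here EKO-labelled replicate 1 was the highest library of both groups, where for most members it was the lowest. The OVA-pulsed groups did not overlap (log2 fold change 0.74, SE 0.16, edgeR adjusted p = 0.00273), whereas the unpulsed groups did and the difference of 0.35 (SE 0.16) did not pass (adjusted p = 0.0867). The unpulsed value depended on the fit and on single libraries. Ifitm2 passed with DESeq2 (adjusted p = 0.0391), without CtrV_unpulsed replicate 3 (0.58, adjusted p = 0.00701) and without EKO_unpulsed replicate 3 (0.50, adjusted p = 0.0384), and fell to 0.15 without CtrV_unpulsed replicate 1, 0.16 without EKO_unpulsed replicate 1 and 0.06 without all replicate 1 libraries (adjusted p = 0.386, 0.373 and 0.701). Counts of Ifitm2 are uncertain, because 40.9% of its exon bases overlap Gm45717 on the same strand and 48.5% of its 50-base words occur in another gene's transcripts.

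Ifi27l2a measured 12.2, 15.4 and 19.7 CPM in unpulsed and 22.9, 13.8 and 11.1 CPM in OVA-pulsed CtrV cells, 34.9, 67.7 and 64.4 CPM in unpulsed and 45.7, 48.4 and 58.0 CPM in OVA-pulsed EKO-labelled cells. Its lines did not overlap, and it had the largest difference of the membrane group, 1.63 (SE 0.29, edgeR adjusted p = 0.00105) after OVA and 1.82 (SE 0.30) without. Bst2 rose by 1.29 (SE 0.26), Rtp4 by 1.18 (SE 0.31) and Shisa5 by 0.82 (SE 0.19) after OVA. Of the exon bases of Rtp4, 13.9% overlap Gm45338 on the same strand. Rtp4 fell just outside the threshold when CtrV OVA replicate 2 or 3 was left out (adjusted p = 0.0590 and 0.0504).

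Parp9, Parp10, Parp11, Parp12 and Parp14 encode mono-ADP-ribosyltransferases or, in the case of Parp9, a macrodomain protein that works with the ubiquitin ligase Dtx3l. All 6 genes were higher in both comparisons. Parp14, the most abundant by CPM and the one with the largest difference, measured 203, 233 and 174 CPM in unpulsed and 297, 208 and 175 CPM in OVA-pulsed CtrV cells, 467, 739 and 628 CPM in unpulsed and 549, 578 and 594 CPM in OVA-pulsed EKO-labelled cells. The lines were far apart in every library, with folds of 2.55 (log2 1.35, SE 0.19, edgeR adjusted p = 0.000228) after OVA and 3.02 (log2 1.59, SE 0.19) without. Parp9 and Dtx3l, which overlap at their starts on chromosome 16 and are transcribed in opposite directions, differed by nearly the same amount, 1.02 (SE 0.12) and 1.07 (SE 0.14) after OVA and 1.13 (SE 0.12) and 1.19 (SE 0.14) without. Reads in the overlap, 9.4% of the exon bases of Parp9 and 8.0% of those of Dtx3l, cannot be assigned if the counting ignored the strand. The smallest difference was that of Parp11, 0.63 (SE 0.16) after OVA and 0.77 (SE 0.16) without, and its OVA call was lost without CtrV OVA replicate 2 (adjusted p = 0.0544).

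The genes acting on RNA, nucleotides and translation were all called, 8 of 8 being higher in both comparisons. Eif2ak2 encodes PKR, which stops translation on sensing double-stranded RNA, Adar edits adenosine in such RNA, Samhd1 degrades deoxynucleotides, Ddx60, Helz2 and Znfx1 are helicases, and Samd9l restricts viral translation. Samhd1, the most abundant of them by CPM, measured 373, 373 and 377 CPM in unpulsed and 446, 349 and 356 CPM in OVA-pulsed CtrV cells, 505, 683 and 665 CPM in unpulsed and 582, 557 and 628 CPM in OVA-pulsed EKO-labelled cells. Its unpulsed CtrV replicates were the tightest of any member, with a coefficient of variation of 0.614%, and its fold was 1.53 (log2 0.62, SE 0.12, edgeR adjusted p = 0.00184) after OVA and 1.65 without.

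Ddx60 stood at the other end of the group. It measured 3.56, 5.51 and 4.23 CPM in unpulsed and 8.43, 4.47 and 4.51 CPM in OVA-pulsed CtrV cells, 19.1, 50.8 and 43.4 CPM in unpulsed and 28.0, 37.6 and 40.8 CPM in OVA-pulsed EKO-labelled cells. The lowest EKO-labelled library lay above the highest CtrV one, and the fold was 5.82 after OVA (log2 2.54, SE 0.33, edgeR adjusted p = 0.000123) and 8.32 without (log2 3.06, SE 0.35, adjusted p = 5.38e-05). The other 6 lay between 0.54 (SE 0.10) for Adar and 1.43 (SE 0.18) for Helz2 after OVA. Helz2, like Ifitm2, was highest in EKO-labelled replicate 1 of both groups, with 694 CPM in EKO-labelled replicate 1 against 526 and 449 CPM in replicates 2 and 3 of the unpulsed cells, and 824 against 467 and 628 CPM after OVA. Of the exon bases of Adar, 16.8% overlap Chrnb2 on the opposite strand.

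Among the regulators of transcription, signalling and ubiquitin, 7 of 8 were higher after OVA and 8 of 8 in unpulsed cells. Trafd1, a feedback regulator of inflammatory signalling and the most abundant of the group by CPM, measured 121, 129 and 136 CPM in unpulsed and 149, 121 and 124 CPM in OVA-pulsed CtrV cells, 195, 311 and 309 CPM in unpulsed and 224, 266 and 288 CPM in OVA-pulsed EKO-labelled cells. No library of one line reached the other, and the fold was 1.95 (log2 0.96, SE 0.15, edgeR adjusted p = 0.000389) after OVA. Batf2, an AP-1 family transcription factor of interferon-activated myeloid cells, was the scarcest tested member, at 0.388, 0.680 and 0.447 CPM in unpulsed and 0.540, 0.423 and 0.332 CPM in OVA-pulsed CtrV cells, 2.13, 2.41 and 2.32 CPM in unpulsed and 2.33, 2.12 and 2.21 CPM in OVA-pulsed EKO-labelled cells. Unlike most members, Batf2 did not set EKO-labelled replicate 1 apart, and its fold of 5.06 after OVA (log2 2.34, SE 0.21) had the smallest adjusted p of the members (edgeR, 7.29e-06). In every CtrV library Batf2 lay under the level of the filter, at 10 to 20 counts. It was tested only because of its EKO-labelled libraries, so its rank among the members is a description.

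Phf11b and Phf11d, neighbours on chromosome 14, rose by 1.31 (SE 0.21) and 1.18 (SE 0.29) after OVA and by 1.44 (SE 0.22) and 1.60 (SE 0.30) without. Values of Phf11b are uncertain, since 47.0% of its 50-base words recur in other transcripts, mostly of Phf11a. Trim21, a cytosolic antibody receptor and ubiquitin ligase, rose by 0.86 (SE 0.17) after OVA, Ifi35 by 0.78 (SE 0.14) and its binding partner Nmi by 0.63 (SE 0.14). An opposite-strand gene, Gm11626, covers 16.8% of the exon bases of Ifi35. Pml, the scaffold of nuclear bodies, differed by 0.53 (SE 0.24, adjusted p = 0.0864) after OVA and by 0.83 (SE 0.24, adjusted p = 0.0150) without. Its EKO-labelled replicate 1 values, 54.2 and 66.6 CPM, lay within the CtrV range of 46.6 to 67.4 CPM, while its other EKO-labelled libraries had 90.5 to 116 CPM. The Pml call after OVA was gained without CtrV OVA replicate 1 (0.86, adjusted p = 0.00858), and that without OVA was lost on leaving out CtrV_unpulsed replicate 3 (0.68, adjusted p = 0.0806). Leaving out EKO_unpulsed replicate 2 or 3 also lost the unpulsed Pml call (0.67 and 0.66, edgeR adjusted p = 0.0803 and 0.0732).

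The remaining members have no common role. Epsti1, an interferon-induced gene named for the interaction of epithelial with stromal cells, measured 3.53, 4.33 and 6.63 CPM in unpulsed and 6.84, 3.6 and 4.28 CPM in OVA-pulsed CtrV cells, 24.5, 43.1 and 42.1 CPM in unpulsed and 28.2, 34.1 and 34.7 CPM in OVA-pulsed EKO-labelled cells. The lowest EKO-labelled library lay well above the highest CtrV library. The fold was 6.40 (log2 2.68, SE 0.26, edgeR adjusted p = 1.54e-05) after OVA, where no tested member differed more, and 7.54 without (log2 2.91, SE 0.27). Lgals3bp, a secreted glycoprotein, measured 105, 134 and 161 CPM in unpulsed and 223, 106 and 96.5 CPM in OVA-pulsed CtrV cells, 271, 484 and 477 CPM in unpulsed and 356, 397 and 427 CPM in OVA-pulsed EKO-labelled cells. CtrV OVA replicate 1, at 223 CPM, approached the EKO-labelled range but did not enter it, and the fold was 2.75 (log2 1.46, SE 0.33, edgeR adjusted p = 0.00418) after OVA. Xaf1, a pro-apoptotic factor, rose by 1.46 (SE 0.25) after OVA and 1.62 (SE 0.25) without.

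Tor3a, a torsin-family ATPase, had the pattern of Pml, with 36 and 41.5 CPM in EKO-labelled replicate 1, 63.6 to 85.9 CPM in the other EKO-labelled libraries and 33.5 to 44.4 CPM in CtrV cells. The log2 difference of 0.85 (SE 0.26) without OVA passed the test (adjusted p = 0.0198), and 0.56 (SE 0.25) after OVA did not (adjusted p = 0.0963). Without CtrV OVA replicate 1 the latter was 0.90 (adjusted p = 0.0101), and the unpulsed call was lost in 4 of the fits that left out 1 library, with adjusted p up to 0.107. Ifi44, the member under the filter, had 2, 2 and 3 counts in unpulsed and 2, 0 and 2 counts in OVA-pulsed CtrV libraries, 6, 25 and 14 counts in unpulsed and 16, 20 and 33 counts in OVA-pulsed EKO-labelled libraries. No CtrV library exceeded 3 counts, and each EKO-labelled library lay above every CtrV one. Fitted without the expression filter, it was higher in both comparisons (edgeR adjusted p = 6.73e-06 after OVA and 0.00124 without), with fold changes that depend on the prior count and are not given.

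**Figure D3:**
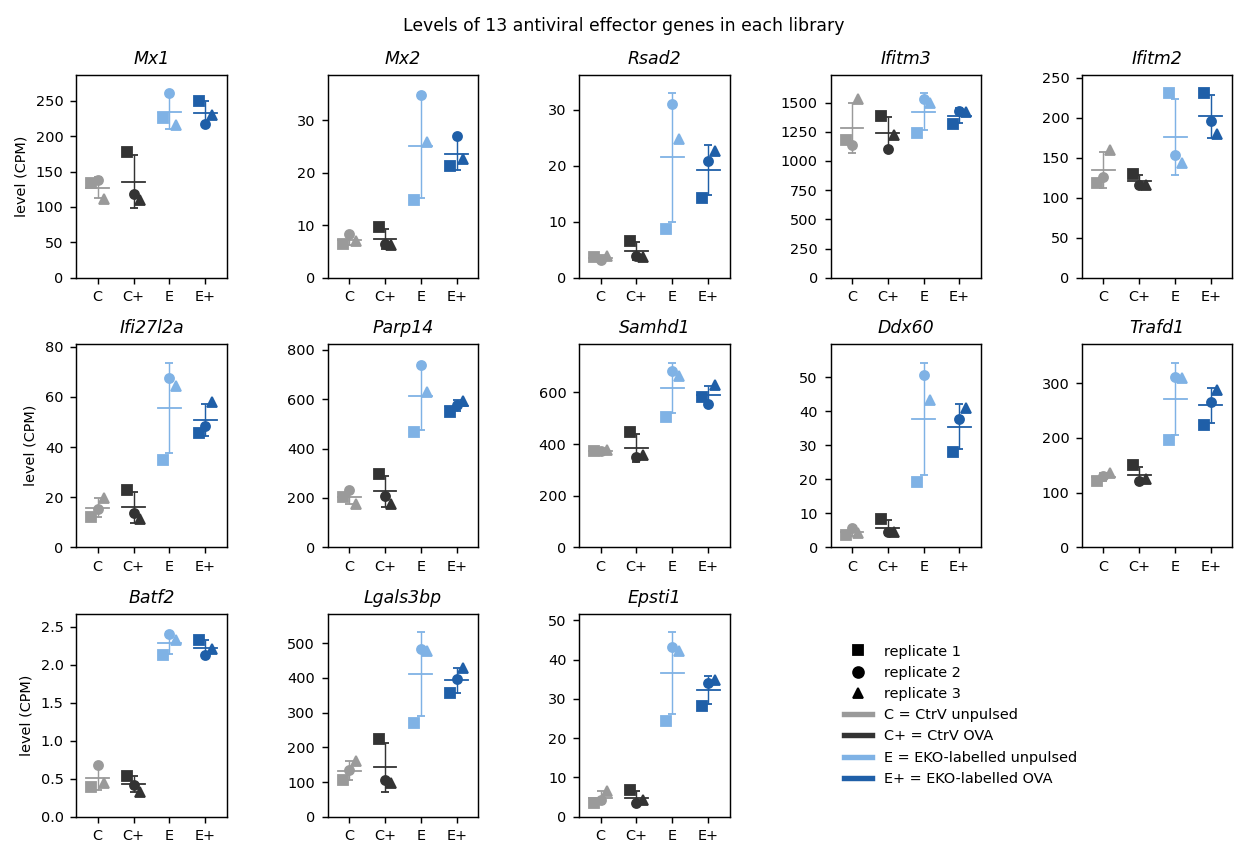
CPM (vertical axes, each from 0) of 13 members in the 12 libraries, with symbols for the replicate number, a horizontal line for the group mean and bars of 1 SD (n = 3); C is CtrV and E EKO-labelled, + marks OVA. Apart from Ifitm3 and unpulsed Ifitm2, each EKO-labelled group lies above the CtrV group, and squares (replicate 1) are low in E for most genes but high for Ifitm2.

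The size of the difference went with the level in CtrV cells. The 7 members with a mean under 10 CPM in OVA-pulsed CtrV cells (Mx2, Rsad2, Cmpk2, Ddx60, Batf2, Phf11d and Epsti1) had a median log2 fold change of 1.95 (1.12 to 2.68) after OVA and 2.18 without. For the other 29 tested members the medians were 0.90 (0.17 to 1.63) and 1.06. Since the class was read from the CtrV libraries that also enter the fold change, the relation is a description. Per kilobase of exon, levels of different members can be set side by side roughly. The lengths are those of GENCODE exon unions, not of the transcripts these cells made. Ranks of Ifitm2 and Phf11b also carry the uncertainty of their counts given above. Over all libraries Ifitm3 had 1966 reads per kilobase of exon at that scale (RPKM), followed by Ifitm2 at 241, Bst2 at 178, Phf11b at 102 and Lgals3bp at 94.7 RPKM, and at the low end stood Rsad2 at 2.82, Ddx60 at 2.4, Phf11d at 1.86, Cmpk2 at 1.27, Batf2 at 0.540 and Ifi44 at 0.0532 RPKM. Ifitm3 alone made up 68.2% of the members' summed RPKM in unpulsed and 67.2% in OVA-pulsed CtrV cells, and 52.5% and 52.3% in EKO-labelled cells. Without Ifitm3 the sum was 883.5 and 892.4 RPKM in CtrV and 1896 and 1870 RPKM in EKO-labelled cells.

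Whether OVA changed the difference between the lines was tested as an interaction. None of the 36 members and none of all 14079 tested genes (0%) passed with edgeR, and DESeq2 and limma voom also called no member. At an unadjusted p under 0.05 there were 0 members and 269 genes. The smallest unadjusted p among the members was 0.108, for Ifitm2, whose line difference was 0.39 (SE 0.22) larger on the log2 scale after OVA. Rsad2 and Ddx60 came next, at -0.58 (SE 0.56) and -0.52 (SE 0.49), with unadjusted edgeR p of 0.326 and 0.317 in fits over all genes. Standard errors of this size (median 0.26 over the members) would leave a change of the line difference of their own size undetectable. The members' line differences in unpulsed and OVA-pulsed cells, which come from different libraries of the same lines, had a Pearson correlation of 0.962 and a Spearman correlation of 0.964 over 36 genes, and were larger in unpulsed cells for 31. That tally rests on single libraries, since the members' median interaction of -0.15 was 0.14 without CtrV_OVA replicate 1 and 0.01 without EKO_unpulsed replicate 2.

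OVA itself called no member in either line, nor any gene of all tested (0%), and for none of the 36 tested members did all OVA-pulsed libraries lie on one side of all unpulsed ones (1.98% of all genes wholly above and 2.39% wholly below in CtrV, 2.34% and 2.56% in EKO-labelled cells). At an unadjusted p under 0.05 with edgeR there were 0 members in each line, against 231 genes in CtrV and 394 in EKO-labelled cells, and DESeq2 and limma voom also called 0 members. The members' median log2 fold change with OVA was 0.08 (-0.20 to 0.46) in CtrV and -0.06 (-0.21 to 0.21) in EKO-labelled cells. Their signs turned with 1 library, to -0.20 in CtrV without CtrV_OVA replicate 1 and to 0.08 and 0.01 in EKO-labelled cells without EKO_unpulsed replicate 2 or 3. These medians hide opposite ratios among the replicate numbers. In replicate 1 all 36 members were higher with OVA in CtrV cells (median log2 ratio 0.43) and all 36 in EKO-labelled cells (0.22). In replicate 2, 35 of 36 were lower with OVA in each line, with medians of -0.13 in CtrV and -0.29 in EKO-labelled cells. In replicate 3, 28 were lower in CtrV (median -0.11) and 31 in EKO-labelled cells (-0.10). Without the replicate 1 libraries of all groups the median was -0.12 in CtrV and -0.20 in EKO-labelled cells, still with no member called. Most members' ratios of OVA-pulsed to unpulsed cells thus shared a direction for a given replicate number in both lines. The libraries themselves did not. After OVA, replicate 1 was the highest of its group for all 36 members in CtrV cells and the lowest for 29 in EKO-labelled cells. Whether same-numbered libraries shared a culture day or plate is not given, and its part in these ratios was not tested.

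**Figure D4:**
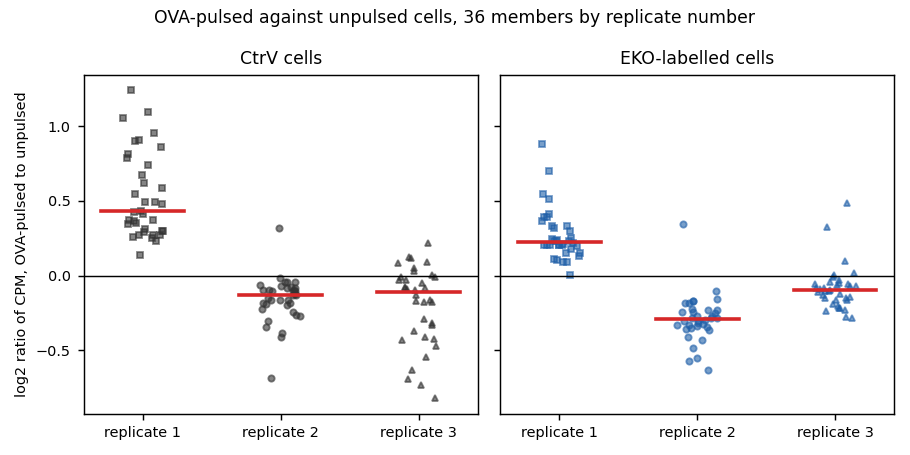
Log2 ratio of CPM in OVA-pulsed to unpulsed cells (vertical axis) of the 36 tested members, by replicate number and line; each point is 1 gene and red lines are medians. All members lie above 0 in replicate 1 of both lines (medians 0.43 and 0.22), and most lie below 0 in replicates 2 and 3.

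The line difference was seen within each replicate number, but was smaller in replicate 1. Paired by number, the members' median log2 ratio of EKO-labelled to CtrV cells after OVA was 0.56, 1.15 and 1.29 in replicates 1, 2 and 3, with 33, 36 and 36 of 36 members above 0. In unpulsed cells it was 0.87, 1.30 and 1.28, with 35, 36 and 34 above 0. With both EKO-labelled replicate 1 libraries left out, 35 members were called after OVA and 34 without. With every replicate 1 library left out, a choice made after seeing the data, the counts were 36 and 34, and the medians 1.21 and 1.28.

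The genes that make and carry the interferon signal were examined as a list of 32, all of them tested. After OVA 19 were higher and 4 lower (71.9% called, where 47% of all genes were), and in unpulsed cells 20 were higher and 4 lower (75% against 46.4%), with median log2 fold changes of 0.61 and 0.64. Ifnb1, which encodes interferon beta, had the largest rise. At 0.121 to 0.309 CPM in the CtrV libraries, Ifnb1 lay under the level of the filter there. It was tested only because of its EKO-labelled libraries, so its rank is a description. Its counts were 4, 6 and 9 in unpulsed and 7, 4 and 4 in OVA-pulsed CtrV libraries, near the limit of 3 counts, against 23, 205 and 113 in unpulsed and 87, 112 and 94 in OVA-pulsed EKO-labelled libraries. The log2 fold change was 4.29 (SE 0.55, edgeR adjusted p = 0.000105) after OVA and 3.94 (SE 0.52) without, and in unpulsed cells EKO-labelled replicate 1 was again the lowest of its group.

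Ikbke, a kinase that activates Irf3 and Irf7, rose by 3.51 (SE 0.24), and Isg15, the ubiquitin-like modifier, by 2.38 (SE 0.37) after OVA. Irf7, the amplifier of interferon production, measured 32.5 to 66.5 CPM in OVA-pulsed CtrV and 204 to 270 CPM in OVA-pulsed EKO-labelled cells, a rise of 2.28 (SE 0.35). Stat2 rose by 0.93 (SE 0.17) and Irf9 by 0.77 (SE 0.12) after OVA. The 4 lower genes were Ifngr1, Tmem173, Ifnar2 and, named after its value was seen, Mavs, the adaptor of cytosolic RNA sensing. Ifngr1, the ligand-binding chain of the interferon gamma receptor, measured 186 to 208 CPM in the 6 CtrV libraries and 89.1 to 98.6 CPM in the 6 EKO-labelled ones, a log2 fold change of -1.11 (SE 0.05, edgeR adjusted p = 1.04e-07) after OVA. Tmem173, which encodes STING, had a log2 fold change of -0.63 (SE 0.04) and Ifnar2, a chain of the type I receptor, of -0.31 (SE 0.06). For Ifnb1, Ikbke, Isg15, Irf7, Stat2, Irf9 and the 4 lower genes the libraries of the lines did not overlap in either comparison. Of all genes, 27% lay wholly above and 25.9% wholly below after OVA, and 24.1% and 22.9% without. For the dependence on OVA 0 of the 32 passed, either adjusted (edgeR, 0% of all genes) or at an unadjusted p under 0.05.

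**Figure D5:**
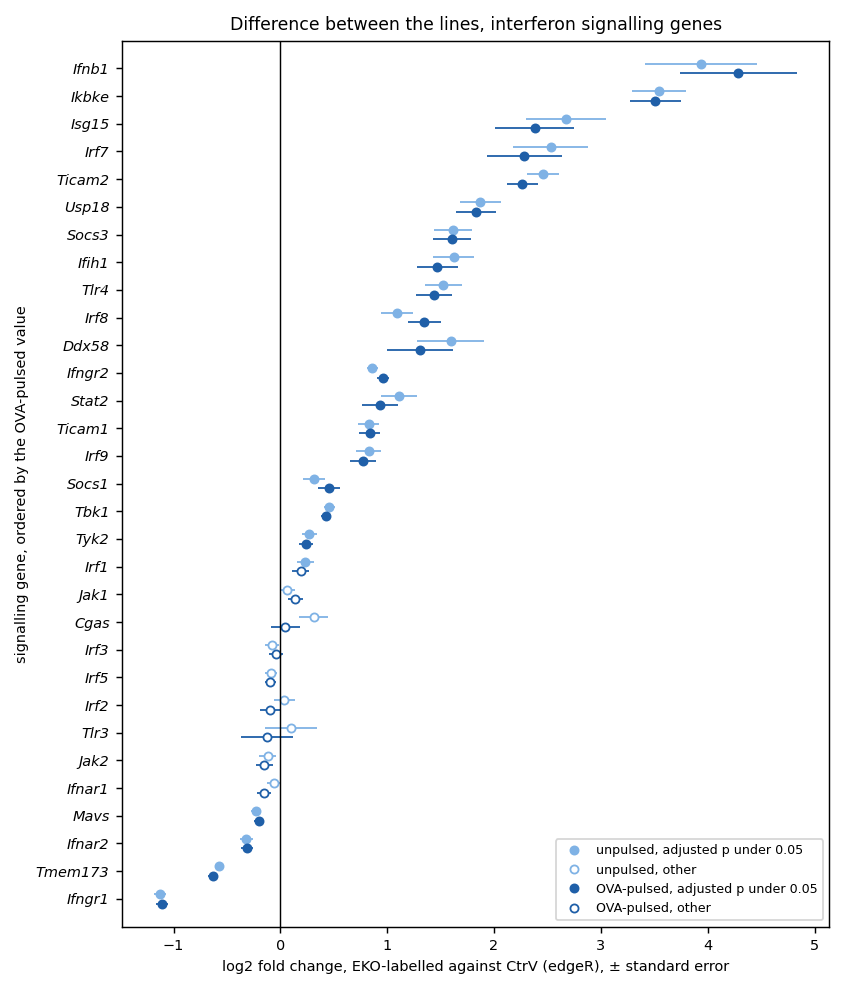
Log2 fold change of EKO-labelled against CtrV cells with its standard error for the signalling genes reported here, in unpulsed (light) and OVA-pulsed (dark) cells; filled points passed an adjusted p of 0.05. Values run from -1.11 for Ifngr1 to 4.29 for Ifnb1 after OVA, with 9 genes not called.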

How the data were processed

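RNA of 12 libraries of Sp37A3 cells was sequenced after a stranded mRNA preparation. The authors deposited a table of raw read counts: reads were aligned to mm10 with STAR, sorted with SAMtools, and the 5′ ends counted on exon unions with featureCounts and an Ensembl model. Reads fitting up to 10 places were reported once, so reads of near-identical genes may be counted for either, and the strand setting is not given in the sources used here. All columns were used.

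From these counts, edgeR 4.0.16 in R 4.3.3 was run with TMM normalization, a filter of log2 CPM above 0 in at least 2 libraries (14079 genes), a quasi-likelihood fit over all 12 libraries with group and replicate number, and p-values adjusted by the Benjamini-Hochberg method across those genes, at 0.05 with no fold limit. Symbols, positions and lengths came from GENCODE M21, which is not the authors' annotation. RPKM used its exon unions. The replicate number entered as in the study's methods, although no source says what same-numbered libraries share. Deviations of same-numbered libraries of the lines correlated at 0.450, 0.295 and 0.298 after OVA and at 0.066, -0.009 and 0.271 without. Members and lists were chosen with earlier results of these data known. All members could be named. Values in every library are given for the member of highest mean CPM and that of the largest OVA-pulsed difference in each role group and for the 3 of smallest interaction p, and signalling genes are named for the 3 largest rises and falls with Stat2, Irf9 and Irf7, and 1 gene of that list is counted but not reported here. Other members' library values (Cmpk2, Helz2, Pml, Tor3a and Ifi44) were chosen after they were seen. Alternatives were DESeq2 1.42.0, limma 3.58.1 voom, RLE and upper-quartile normalization, no filter, 10 counts in every library, no replicate block, the compared libraries alone, stricter limits, and leaving out libraries. The fit was tested on simulated data.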

Additional observations from a re-analysis of the deposited data

How the results depend on the processing

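No alternative called a member lower, and the counts of members called ranged from 32 to 36 after OVA and from 31 to 36 without over the other tools, normalizations and filters, except that 18 and 23 had a log2 fold change of at least 1. Without the replicate block, which ignores the pairing, 32 and 34 members and 22 and 22 signalling genes were called with and without OVA, and no member's call changed. Leaving out 1 library at a time gave 30 to 36 members after OVA and 31 to 34 in unpulsed cells. The calls lost were Rtp4 and Parp11 after OVA and Cmpk2, Pml and Tor3a without, and all 36 were called without CtrV OVA replicate 1, which added Cmpk2, Ifitm3, Pml and Tor3a. Leaving out 1 library, the interaction ranged from -0.95 to 0.11 for Rsad2 and from -0.83 to 0.19 for Ddx60 on the log2 scale, the positive values being those without CtrV OVA replicate 1, and passed no threshold (adjusted p of 0.819 or more over the alternatives of Rsad2 and 0.857 or more for Ddx60). The cause was not tested. Other scalings moved the median of all genes by less than 0.05 on the log2 scale. Depth limits Ifi44, with 0 to 3 counts in CtrV libraries, Ifnb1, with 4 to 9, and Batf2, with 10 to 20. The compared libraries alone could give no interaction.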
